A study of Mus musculus with 3 samples.

Results

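The genes described here are 8 mouse genes of inflammatory cytokine signalling, taken by symbol from the 32285 genes of the deposited matrices: Tnf with its receptors Tnfrsf1a and Tnfrsf1b and its feedback inhibitor Tnfaip3, and Osm and Il6 with the receptor chains Il6ra and Il6st. All 8 symbols were found once each. The cells were sorted with CD45 and viability microbeads from infrarenal aortas of wild type mice, and each group is 1 droplet library made from pooled aortas. AAA_14 came from aortas treated with elastase, an enzyme used to model abdominal aortic aneurysm (AAA). The library titled AAA_7 is named like an aneurysm sample, but its treatment label reads PBS, so its treatment is in doubt. Sham came from aortas treated with PBS, the buffer. The labels give pools of 20 aneurysm and 50 control aortas and do not give the unit of the 7 and 14 in the titles. With 1 library per group no difference between groups has a replicate check, and no test was possible; the 95% intervals below cover counting error only.

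Tumour necrosis factor, the product of Tnf, is released by activated myeloid cells and signals through a widely expressed death-domain receptor (Tnfrsf1a) and an inducible receptor of leukocytes (Tnfrsf1b). Both receptors can activate the transcription factor NF-kappaB, which induces Tnf itself and Tnfaip3, a ubiquitin-editing enzyme that shuts the pathway down again. Interleukin 6 and oncostatin M, the products of Il6 and Osm, belong to the cytokine family that signals through gp130, the chain encoded by Il6st, to JAK kinases and STAT3. Interleukin 6 first binds the alpha chain encoded by Il6ra, which is found mainly on hepatocytes and some leukocytes, whereas gp130 is present on most cells, stromal cells included.

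AAA_14 held 10108 barcodes and 67243700 UMIs (unique molecular identifiers, each standing for 1 captured transcript), AAA_7 3496 barcodes and 13341534 UMIs, and Sham 3785 barcodes and 13677839 UMIs. Barcodes with at least 200 genes and at most 10% mitochondrial UMIs were kept as cells, which left 5286 cells in AAA_14, 3229 in AAA_7 and 1235 in Sham. The libraries stood apart in quality: the filter removed 47.7%, 7.64% and 67.4% of the barcodes of AAA_14, AAA_7 and Sham, and the kept cells had median mitochondrial shares of 6.51%, 0.989% and 8.39% in that order. The CD45 gene Ptprc was detected in 93.5% of AAA_14, 84.0% of AAA_7 and 92.5% of Sham cells. Of the barcode sequences, 10 were shared by AAA_14 and Sham, 5 by AAA_7 and Sham and 12 by AAA_14 and AAA_7.

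Clustering without the 8 genes and their pathway genes gave 31 clusters, of which 26 could be named from marker genes; a class name stands for cells like that type by these markers. Neutrophils numbered 760 cells in AAA_14, 710 in AAA_7 and 93 in Sham, and T cells 925, 562 and 430 in the same order. Cells of the named macrophage and monocyte clusters, pooled as phagocytes, numbered 918 in AAA_14 and 1009 in AAA_7 but 3 in Sham. No phagocyte value of Sham is therefore compared. An unnamed cluster led by Prtn3, Plac8 and Mpo scored best as monocytes, with 8 monocyte markers detected. It held 265, 21 and 12 cells of AAA_14, AAA_7 and Sham. Of its 10 leading genes 4 are granulocyte precursor markers and 1 a monocyte marker, so the phagocyte values leave it out. The libraries differed in how their neutrophils were spread over clusters, and no single cluster held most AAA_14 neutrophils. A cluster led by Acod1, Csf1 and Slc7a11 held 682 of the 710 AAA_7 neutrophils, 218 of those of AAA_14 and 3 of those of Sham. None of its 10 leading genes is a neutrophil marker of the list used, but 7 of the 8 neutrophil markers were detected in it. A cluster led by Csf3r, G0s2 and Cxcr2 held 306 cells of AAA_14, 11 of AAA_7 and 39 of Sham, and a cluster led by Retnlg, Mmp8 and Ly6g held 236, 17 and 51. Levels are UMIs per 1000000 UMIs of the class in that library (CPM), and a gene is called higher or lower at a 2-fold or larger ratio when the 2 libraries sum to 10 UMIs or more. Because the median gene of a class could itself sit above Sham, that median is given with the gene lists. Median neutrophil depth was 3796 UMIs in AAA_14, 1718 UMIs in AAA_7 and 3013 UMIs in Sham, so shares of cells are given after thinning cells to 1000 UMIs. Shallower cells were left out of these shares, namely 7 neutrophils of AAA_14, 70 of AAA_7 and 1 of Sham, and 9 phagocytes of AAA_14 and 108 of AAA_7.

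Promoter sequences were taken from RefSeq (GRCm38.p6) as the 250 bases before the annotated start. They are shown for Tnf, Tnfrsf1b and Tnfaip3, whose levels differed in the same direction between neutrophil libraries, and for Il6, which was almost absent from neutrophils. Capitals mark the letters TATAAA, the letters TTCNNNGAA (the form bound by STAT factors, palindromic and so read on both strands) and the kappaB consensus bound by NF-kappaB, searched on both strands. The Tnf promoter lies on the minus strand at chr17:35202008-35202257, that of Tnfrsf1b on the minus strand at chr4:145246871-145247120, that of Tnfaip3 on the minus strand at chr10:19015411-19015660 and that of Il6 on the plus strand at chr5:30012864-30013113.
Tnf: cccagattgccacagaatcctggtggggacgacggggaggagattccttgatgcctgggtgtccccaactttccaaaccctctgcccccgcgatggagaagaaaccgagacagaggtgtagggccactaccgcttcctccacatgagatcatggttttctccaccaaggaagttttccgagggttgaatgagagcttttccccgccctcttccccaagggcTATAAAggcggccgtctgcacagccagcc
Tnfrsf1b: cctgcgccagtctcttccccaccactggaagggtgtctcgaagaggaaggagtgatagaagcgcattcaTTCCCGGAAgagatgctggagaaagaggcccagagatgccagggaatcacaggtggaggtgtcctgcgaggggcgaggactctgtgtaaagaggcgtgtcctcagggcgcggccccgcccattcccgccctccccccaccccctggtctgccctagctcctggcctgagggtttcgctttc
Tnfaip3: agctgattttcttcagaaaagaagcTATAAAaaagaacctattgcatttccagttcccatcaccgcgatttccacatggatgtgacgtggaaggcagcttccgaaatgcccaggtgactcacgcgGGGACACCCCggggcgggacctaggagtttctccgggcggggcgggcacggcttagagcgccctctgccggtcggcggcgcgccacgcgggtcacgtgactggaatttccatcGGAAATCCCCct
Il6: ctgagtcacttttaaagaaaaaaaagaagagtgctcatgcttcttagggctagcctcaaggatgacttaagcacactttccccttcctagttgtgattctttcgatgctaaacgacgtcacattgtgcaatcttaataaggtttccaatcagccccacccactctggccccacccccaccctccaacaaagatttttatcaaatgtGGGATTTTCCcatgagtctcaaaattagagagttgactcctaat
The Tnf window held TATAAA 29 to 24 bases before the start, and that of Tnfrsf1b held TTCNNNGAA 181 to 173 bases before it. In the Tnfaip3 window the kappaB consensus occurred 125 to 116 bases before the start, where it reads on both strands, and again 12 to 3 bases before it on the opposite strand, and TATAAA lay 225 to 220 bases before it. The Il6 window held the kappaB consensus 44 to 35 bases before the start. A further annotated Tnfaip3 promoter, at chr10:19011964-19012213, held no match and is not shown. Il6ra and Tnfrsf1a had the same library order in neutrophils and are not shown either. The Il6ra window held no match, and that of Tnfrsf1a held TTCNNNGAA. Over 32536 promoter windows of 250 bases, 7.28% held the kappaB consensus, 7.04% held TTCNNNGAA and 12.3% held TATAAA, so each match is a description of letters and not a site.

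Tnf (ENSMUSG00000024401, chr17:35199381-35202007, minus strand, GRCm38) had the largest ratio between libraries of the 8 genes. In neutrophils it stood at 380.4 CPM in AAA_14 (1485 UMIs), 3964 CPM in AAA_7 (5683 UMIs) and 34.4 CPM in Sham (13 UMIs). AAA_7 was highest and Sham lowest, and the counting intervals of 361 to 400 CPM in AAA_14 and 18.3 to 58.8 CPM in Sham did not overlap. The log2 ratio was 3.41 for AAA_14 over Sham (95% interval 2.69 to 4.38), 6.80 for AAA_7 over Sham (6.07 to 7.76) and −3.38 for AAA_14 over AAA_7 (−3.46 to −3.30). With a mitochondrial limit of 5% the first and last were 2.76 and −4.09. At equal depth, 19.1% of AAA_14, 68.0% of AAA_7 and 3.26% of Sham neutrophils held a Tnf UMI, so the order was the same per cell; unthinned, the shares were 35.4%, 76.2% and 10.8%. No single cell carried the level, since the neutrophil with the most Tnf held 3.7% of the class Tnf UMIs in AAA_14 and 1.43% in AAA_7. The mitochondrial share of all neutrophil UMIs was 4.72% for AAA_14, 0.847% for AAA_7 and 1.74% for Sham, and its part in the result was not tested.

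The neutrophil level of Tnf followed the clusters. The Acod1 cluster held 77.4% of the Tnf UMIs of AAA_14 neutrophils, and within it Tnf stood at 1263 CPM in AAA_14 and 4268 CPM in AAA_7, a log2 ratio of −1.76 (−1.85 to −1.66). In the Csf3r cluster Tnf stood at 238 CPM in AAA_14 and 72.6 CPM in Sham, the Sham value resting on 6 UMIs. In the Retnlg cluster it stood at 44.7 CPM in AAA_14 and 24.9 CPM in Sham, a log2 ratio of 0.75 whose interval of −0.26 to 2.20 included 0. Without the Acod1 cluster, 542 AAA_14 and 90 Sham neutrophils remained, and the AAA_14 over Sham ratio of Tnf was 1.60 (0.86 to 2.58) in place of 3.41. With AAA_7 left out of the clustering it was 3.14, and that of Osm 0.10. In the unnamed cluster led by the granule genes Camp and Ngp, Tnf had 30 UMIs in 64 cells of AAA_14, 6 UMIs in 7 cells of AAA_7 and 5 UMIs in 16 cells of Sham.

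**Figure D1:**
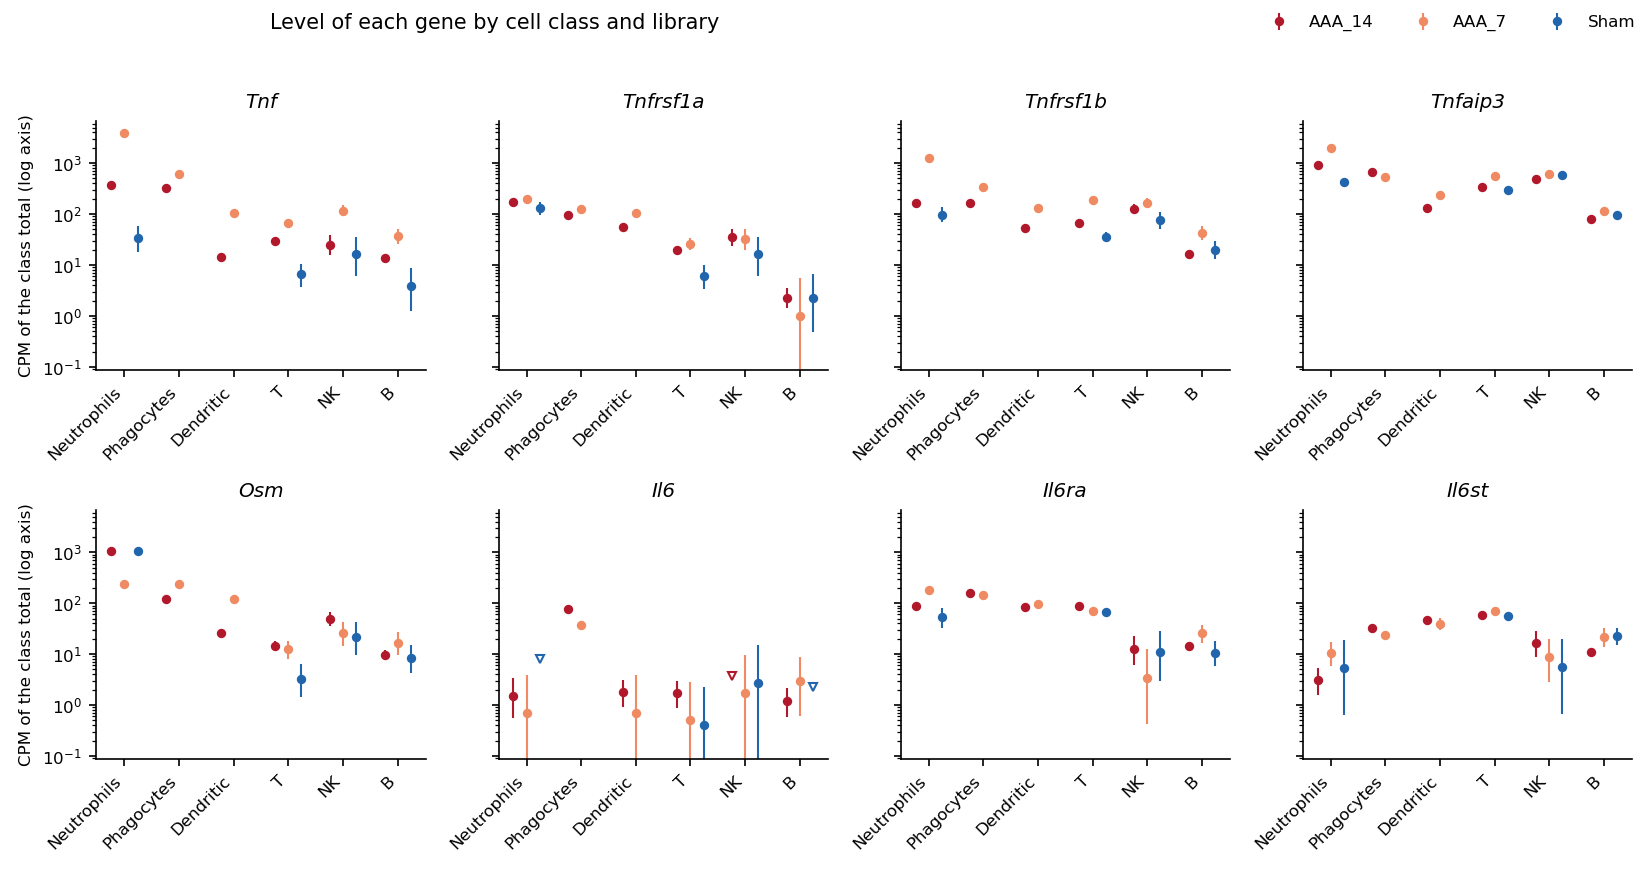
Level of each of the 8 genes (CPM of the class total, log axis) by cell class in AAA_14, AAA_7 and Sham, for classes with at least 50 cells in the library; points are single libraries, bars are 95% Poisson counting intervals, and open triangles mark the level of 3 counts where no UMI was found. Tnf in neutrophils spans from 34.4 CPM in Sham to 3964 CPM in AAA_7, while Osm in neutrophils sits above 1000 CPM in AAA_14 and Sham and at 239 CPM in AAA_7.

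In phagocytes, the other main source of Tnf, the level was 331 CPM in AAA_14 (3440 UMIs) and 625 CPM in AAA_7 (3561 UMIs), a log2 ratio of −0.92 (−0.98 to −0.85) that reached −1.50 with a mitochondrial limit of 5%. The phagocyte clusters differed in direction. In macrophages led by Ccl8, Ccl7 and Mrc1, Tnf was 501 CPM in AAA_14 and 299 CPM in AAA_7, a log2 ratio of 0.74 (0.61 to 0.88). In the cluster led by Thbs1, Flrt3 and Adora2b it was 243 CPM in AAA_14 and 988 CPM in AAA_7, a log2 ratio of −2.02 (−2.28 to −1.78). That cluster scored best as monocytes, with 7 monocyte markers detected. None of its 10 leading genes is a monocyte or macrophage marker of the list used. Macrophages led by Slamf9, Ms4a7 and Cx3cr1 had 48.7 CPM in AAA_14 and 146 CPM in AAA_7. These clusters differed in size, as the Ccl8 cluster held 510 AAA_14 and 298 AAA_7 cells and the Thbs1 cluster 62 and 483.

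Lymphocytes and dendritic cells carried Tnf at lower levels. T cells had 29.1 CPM in AAA_14, 65.7 CPM in AAA_7 and 6.58 CPM in Sham, with log2 ratios of 2.10 (1.41 to 2.98) for AAA_14 over Sham and 3.28 (2.56 to 4.17) for AAA_7 over Sham. With T cells thinned to 1000 UMIs these were 0.69 and 2.38, so that the 2-fold call of AAA_14 was lost. No T cell cluster of Sham then had more than 3 cells with a Tnf UMI. NK cells had 25.2, 117 and 16.4 CPM and B cells 13.6, 37.3 and 3.83 CPM in AAA_14, AAA_7 and Sham. AAA_7 was the highest library in each of these classes, and in NK cells the AAA_14 and Sham intervals overlapped. For B cells the log2 ratio of AAA_14 over Sham, 1.70 (0.57 to 3.47) from 5 Sham UMIs, was 0.46 after thinning. Dendritic cells had 14.1 CPM in AAA_14 and 104.7 CPM in AAA_7, a log2 ratio of −2.89 (−3.27 to −2.51), beside 15 UMIs in the 43 Sham cells, 53.3% of them in 1 cell.

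Free RNA in the droplets was gauged with S100a8, a neutrophil transcript. In the other 5 compared classes S100a8 stood at 0.209% to 0.773% of its neutrophil level in AAA_14, and at 0.257% to 1.48% in AAA_7. The same fraction of the neutrophil Tnf level would give 58.7 CPM in AAA_7 dendritic cells, where 104.7 CPM was measured, 41.4 CPM in NK cells against 117 CPM, 10.2 CPM in T cells against 65.7 CPM and 11.4 CPM in B cells against 37.3 CPM. In AAA_7 phagocytes it would give 54.1 CPM, against 625 CPM measured. In AAA_14 it came to at most 2.94 CPM in any of these classes. This gauge covers free RNA of neutrophils only. Free Tnf RNA from phagocytes, which held most Tnf UMIs of AAA_14, was not gauged, so 2.94 CPM is not an upper limit. The 42 erythroid cells of AAA_14 held no UMI of Tnf or Osm, which allows a level of up to 9.55 CPM at 3 counts.

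By source, phagocytes held 61.6% and neutrophils 26.6% of the Tnf UMIs of AAA_14, while phagocytes held 36.6% and neutrophils 58.5% of those of AAA_7. Sham held 75 Tnf UMIs in all, with 21.3% in T cells, 20.0% in dendritic cells and 17.3% in neutrophils. In all kept cells Tnf had 5585 UMIs in AAA_14 and 9720 in AAA_7. These shares depend on how many cells of each class a library held.

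**Figure D2:**
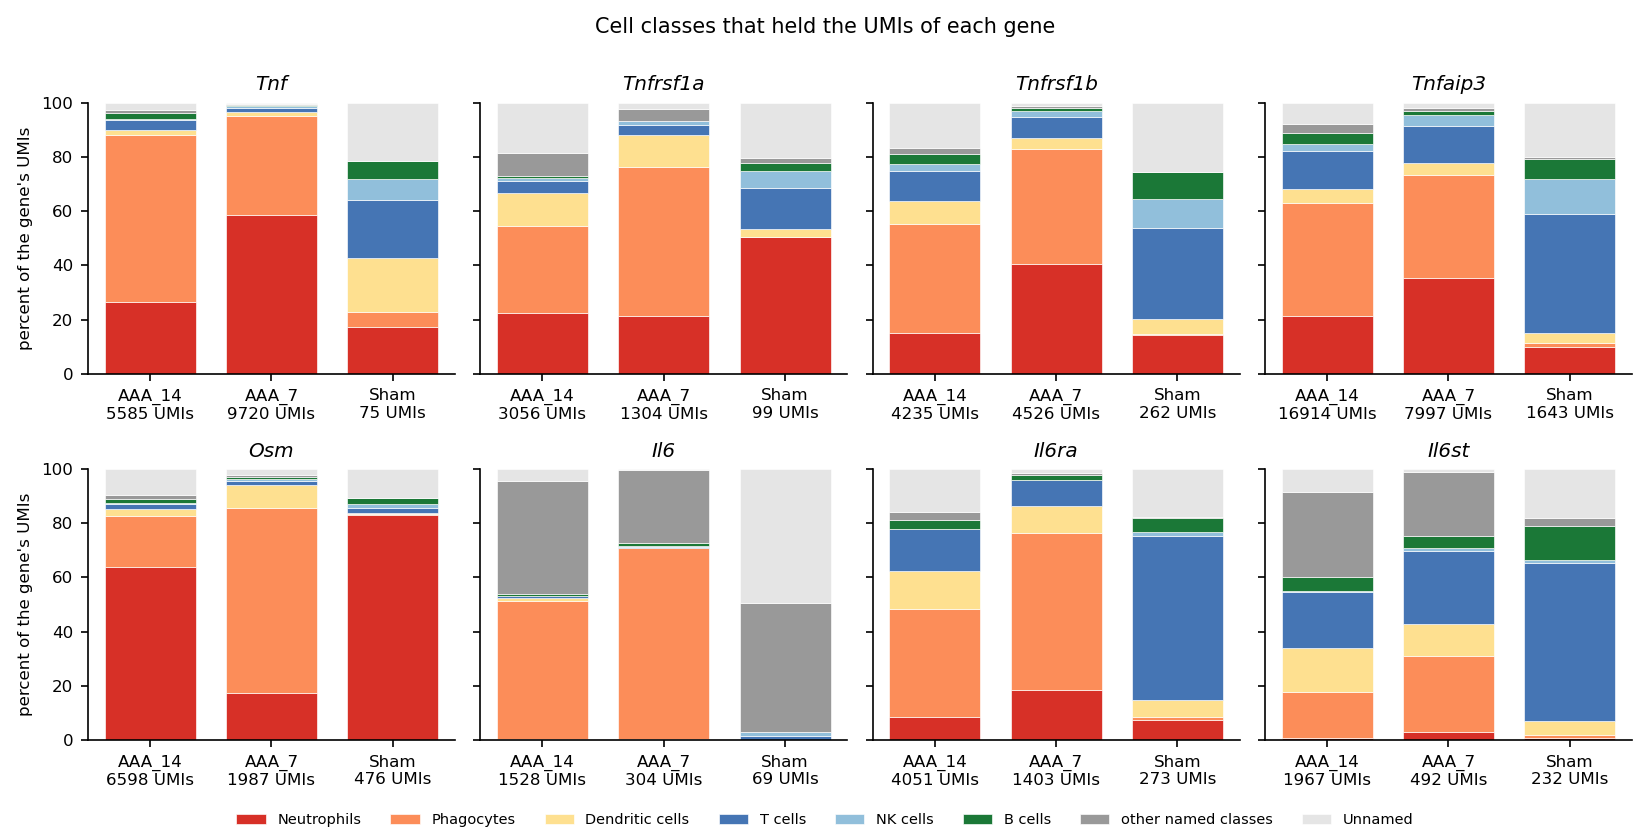
Share of the UMIs of each gene (percent of the library's UMIs of that gene) held by each cell class in AAA_14, AAA_7 and Sham; stacked bars are single libraries. Osm comes mostly from neutrophils in AAA_14 (63.8%) and Sham (83.2%) but from phagocytes in AAA_7 (68.4%). Il6 is shared between phagocytes and non-immune cells in AAA_14. The 69 Il6 UMIs of Sham include none from its 3 phagocytes, which are too few to compare.

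The 3′ untranslated end of the Tnf transcript, 767 bases in the GENCODE annotation, carries the AU-rich elements known to make the mRNA short-lived. The densest 30-base stretch, at chr17:35199676-35199705 on the minus strand of GRCm38, is shown because these elements mark the Tnf transcript; capitals mark each copy of ATTTA, of which 5 lie in the stretch and 8 in the whole end.
Tnf AU-rich stretch: ATTTAttATTTATTTAttATTTATTTAttt
Of 2358 mouse 3′ ends of 80% to 120% of this length, that of Tnf included, 3 (0.127%) held a stretch as dense, Tnf among them. By the same count the 3′ ends of the other genes held 0 copies of ATTTA in Tnfrsf1a, 2 in Tnfrsf1b, 5 in Tnfaip3, 6 in Osm, 10 in Il6, 4 in Il6ra and 9 in Il6st, over ends of different lengths.

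The receptors of Tnf differed from each other. Tnfrsf1b (ENSMUSG00000028599, chr4:145213463-145246870, minus strand) stood in neutrophils at 164 CPM in AAA_14, 1282 CPM in AAA_7 and 97.8 CPM in Sham, with log2 ratios of 0.73 (0.27 to 1.27) for AAA_14 over Sham, 3.69 (3.24 to 4.22) for AAA_7 over Sham and −2.96 (−3.10 to −2.83) for AAA_14 over AAA_7. AAA_7 stood apart from the other 2 libraries, and at equal depth 18.5% of AAA_14, 67.2% of AAA_7 and 15.2% of Sham neutrophils held a Tnfrsf1b UMI. Tnfrsf1a (ENSMUSG00000030341, chr6:125349362-125362484, plus strand) stood at 176 CPM in AAA_14, 194 CPM in AAA_7 and 132 CPM in Sham. Its log2 ratios of 0.40 (0.00 to 0.86) for AAA_14 over Sham and 0.54 (0.11 to 1.02) for AAA_7 over Sham stayed under 2-fold, and that of AAA_14 over AAA_7, −0.14, had an interval of −0.34 to 0.07.

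Within the Acod1 cluster Tnfrsf1b was 366 CPM in AAA_14 and 1373 CPM in AAA_7, a log2 ratio of −1.91 (−2.08 to −1.74), while Tnfrsf1a had a ratio of −0.17 (−0.46 to 0.12). In the whole class the ratio of Tnfrsf1b was −3.64 with a mitochondrial limit of 5%. In the Csf3r cluster Tnfrsf1b was 227 CPM in AAA_14 and 363 CPM in Sham, so that AAA_14 was the lower library there, and Tnfrsf1a was 313 and 206 CPM. Without the Acod1 cluster the AAA_14 over Sham ratio of Tnfrsf1b was 0.12.

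Outside neutrophils, Tnfrsf1b was also higher in AAA_7 in most classes. In phagocytes it was 164 CPM in AAA_14 and 335 CPM in AAA_7 (log2 ratio −1.03, −1.13 to −0.94, and −0.94 with no mitochondrial limit), and in dendritic cells 53.3 and 131 CPM (−1.30, −1.55 to −1.04). T cells had 67.9 CPM in AAA_14, 187 CPM in AAA_7 and 36.2 CPM in Sham, with log2 ratios of 0.90 (0.58 to 1.25) for AAA_14 over Sham and 2.36 (2.03 to 2.72) for AAA_7 over Sham. The T cell clusters made up different shares of each library. In the cluster led by Cd8b1, Cd8a and Dapl1 the AAA_14 over Sham ratio was 1.13 (0.51 to 1.87), and in that led by Lef1, Dusp10 and Tcf7 it was −0.75 (−1.59 to 0.08). Regulatory T cells are known for this receptor, and the T cell cluster led by Ctla4, Izumo1r and Ikzf2, with Foxp3 among its leading genes, had 133 CPM in the 247 cells of AAA_14, 385 CPM in the 134 cells of AAA_7 and 131 CPM in the 25 cells of Sham (19 UMIs). Tnfrsf1a in T cells was 19.6 CPM in AAA_14, 26.4 CPM in AAA_7 and 6.17 CPM in Sham, where it rested on 15 UMIs, and the log2 ratios over Sham were 1.62 (0.89 to 2.54) and 2.06 (1.24 to 3.03). B cells held 21 UMIs of Tnfrsf1a in AAA_14, 1 in AAA_7 and 3 in Sham. Among classes with at least 20 cells in a library, the highest Tnfrsf1a level was in the 27 endothelial cells of AAA_14, at 227 CPM.

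Tnfaip3 (ENSMUSG00000019850, chr10:19000910-19015657, minus strand) stood in neutrophils at 916 CPM in AAA_14, 1963 CPM in AAA_7 and 433 CPM in Sham. The libraries kept the order of Tnf but lay closer together, with log2 ratios of 1.07 (0.85 to 1.31) for AAA_14 over Sham, 2.17 (1.95 to 2.42) for AAA_7 over Sham and −1.10 (−1.17 to −1.03) for AAA_14 over AAA_7. The 2-fold call of AAA_14 over Sham was lost with a mitochondrial limit of 5% (0.33), with TMM factors (0.84), with classes assigned cell by cell (0.91) and when AAA_7 was left out of the clustering (0.82). The ratio of AAA_14 over AAA_7 was −0.70 after thinning and −2.03 with the limit of 5%. Within the Acod1 cluster Tnfaip3 was 2426 CPM in AAA_14 and 2118 CPM in AAA_7 (log2 ratio 0.20, 0.11 to 0.28), where Tnf was lower in AAA_14. In the Retnlg cluster it was 132 CPM in AAA_14 and 270.1 CPM in Sham, a log2 ratio of −1.03 (−1.40 to −0.64), and in the Csf3r cluster 1061 and 1017 CPM. Without the Acod1 cluster the AAA_14 over Sham ratio was 0.05.

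In phagocytes Tnfaip3 was 681 CPM in AAA_14 and 537 CPM in AAA_7, a log2 ratio of 0.34 (0.28 to 0.41), and the clusters again differed. In Ccl8 macrophages it was 1002 CPM in AAA_14 and 375 CPM in AAA_7 (log2 ratio 1.42, 1.30 to 1.53), and in Slamf9 macrophages 115 and 219 CPM (−0.93, −1.21 to −0.65). T cells had 339 CPM in AAA_14, 561 CPM in AAA_7 and 297 CPM in Sham. Their log2 ratio over Sham was 0.19 (0.07 to 0.32) in AAA_14, below the T cell median gene at 0.50, and 0.92 (0.78 to 1.06) in AAA_7. In gamma-delta T cells it was 545 CPM in the 88 cells of AAA_14 and 1748 CPM in the 46 cells of AAA_7.

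**Figure D3:**
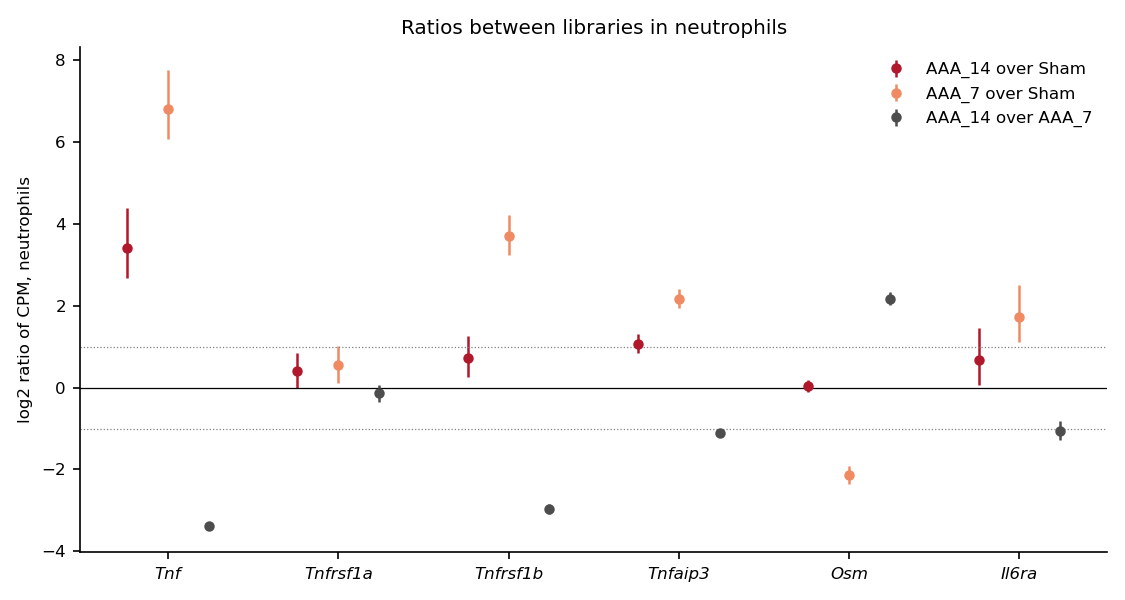
Log2 ratio between libraries in neutrophils, with 95% counting intervals, for genes with at least 30 UMIs in the pair, so Il6 and Il6st are not drawn. The 3 pairs of libraries are AAA_14 over Sham and then AAA_7 over Sham and AAA_14 over AAA_7. Points are ratios of single libraries. Tnf lies at 3.41, 6.80 and −3.38, Tnfrsf1a stays within 1 of 0 in all 3, and Osm lies at 0.04, −2.13 and 2.18.

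Among neutrophils, 7 of the 8 genes had at least 10 UMIs in AAA_14 and Sham together. Tnf and Tnfaip3 were higher in AAA_14, as were 24.2% of all genes tested, and Il6st, with 12 UMIs in AAA_14 and 2 in Sham, was lower, as were 6.41% of all genes. In AAA_7 over Sham, 4 of 7 were higher (Tnf, Tnfrsf1b, Tnfaip3 and Il6ra) against 28.4% of all genes, and Osm was lower, against 11.2%. In AAA_14 over AAA_7, Osm was higher, against 13.7% of all genes, and 5 of 7 were lower, against 11.9%. The 3 comparisons share their libraries, so they are not independent of each other.

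The wider NF-kappaB list, 16 genes for the factors, their inhibitors and targets, was described beside Tnfaip3. In AAA_14 over Sham neutrophils 9 of 16 were higher, against 24.2% of all genes, and 0 lower, against 6.41%. The median log2 ratio was 1.22 against 0.24 for all genes. Of these 9, Tnip3 had 0 UMIs in Sham. In AAA_7 over Sham 15 of 15 measured genes were higher, against 28.4% of all genes, with a median of 2.996 against 0.33. In AAA_14 over AAA_7, 0 were higher and 15 of 16 lower, against 13.7% and 11.9% of all genes, with a median of −1.85 against 0.03. Bcl2a1d, an anti-apoptotic target of NF-kappaB, stood at 84.8 CPM in AAA_14, 306 CPM in AAA_7 and 7.93 CPM in Sham, and Traf1, a signalling adaptor induced by NF-kappaB, at 122, 388 and 21.1 CPM. Tnip1, a partner of the Tnfaip3 protein, stood at 43.8, 224 and 10.6 CPM, the Sham value resting on 4 UMIs. Without the Acod1 cluster 5 genes of the list were higher in AAA_14 than in Sham. A list of 14 immediate early and heat shock genes, which digestion of tissue at 37 °C is known to raise, was also counted. In AAA_14 over Sham, 2 were higher, against 24.2% of all genes, and 0 lower, against 6.41% (median 0.32). In AAA_7 over Sham, 4 were higher, against 28.4%, and 1 lower, against 11.2% (median 0.38). The part of this list in the differences of Tnf was not tested.

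**Figure D4:**
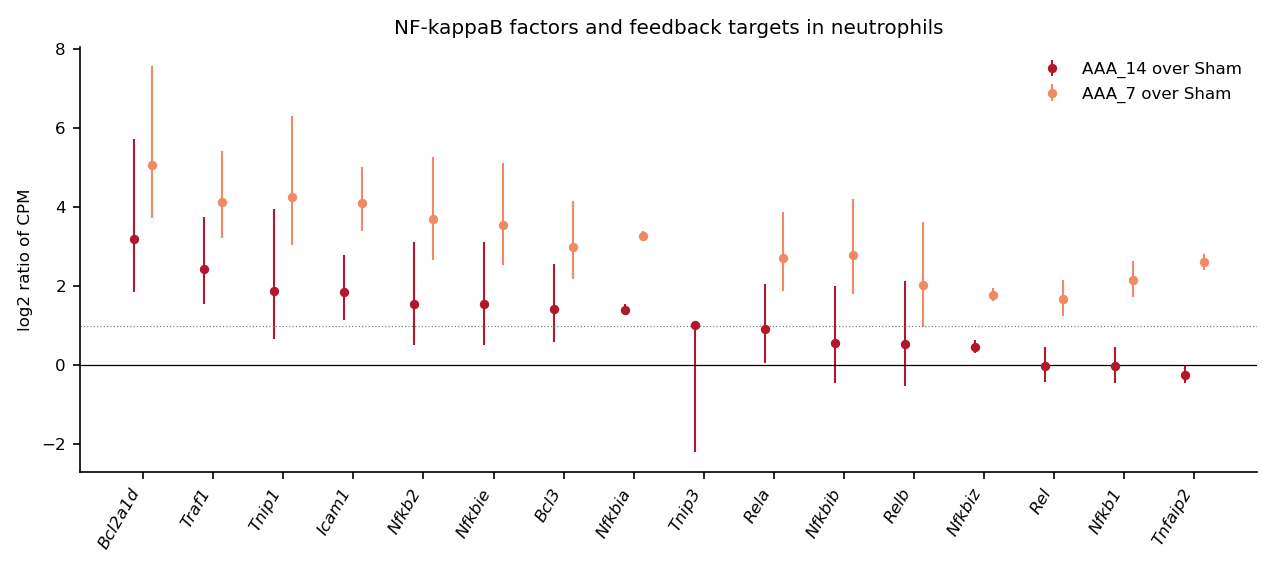
Log2 ratio in neutrophils of the genes of the NF-kappaB list with at least 10 UMIs, for AAA_14 over Sham and AAA_7 over Sham, with 95% counting intervals; the dotted line marks 2-fold, AAA_7 over Sham has 15 of the 16 genes, and Tnip3, with 0 UMIs in Sham, has no upper bound. The list median is 1.22 in AAA_14 and 2.996 in AAA_7.

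Genes that release or destabilise Tnf were described next. Of the list of shedding and mRNA control genes, 10 were measured in neutrophils. In AAA_14, 3 were higher than in Sham, against 24.2% of all genes (median 0.52 against 0.24), and in AAA_7, 7 were higher than in Sham, against 28.4% (median 1.64 against 0.33). Adam17, the protease that cleaves membrane-bound tumour necrosis factor, had 165 UMIs in AAA_14, 138 UMIs in AAA_7 and 3 UMIs in Sham, or 42.3, 96.3 and 7.93 CPM. Its partner Rhbdf2 stood at 65.1, 96.3 and 23.8 CPM, and Mapkapk2, a kinase that stabilises AU-rich mRNAs, at 181, 678 and 84.6 CPM. In AAA_14 over AAA_7, 4 of the 10 were lower, against 11.9% of all genes, and 0 higher, against 13.7%.

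Of the receptor complex and death signalling list, 5 of 17 genes exceeded Sham in AAA_14 neutrophils, against 24.2% of all genes, and 6 of 15 did in AAA_7, against 28.4%. The list medians were 0.57 and 0.63, and those of all genes 0.24 and 0.33. Those named by size, the ubiquitin ligase components Rnf31 and Rbck1 and the adaptor Traf2, rested on 1 to 5 Sham UMIs. Among other ligands of the superfamily, 6 of 8 were higher in AAA_14, against 24.2% of all genes, with a median of 1.41 against 0.24. Tnfsf9, the ligand of a T cell costimulatory receptor, had 126 UMIs in AAA_14, 233 UMIs in AAA_7 and 0 UMIs in Sham. Ltb, a lymphotoxin chain, stood at 269 CPM in AAA_14, 293 CPM in AAA_7 and 105.7 CPM in Sham, and Tnfsf14 at 48.2, 60.0 and 15.9 CPM. Of the other receptors of the superfamily, 4 of 11 were higher in AAA_14, with a median of 0.26 against 0.24 for all genes, and 5 of 9 were higher and 1 lower in AAA_7, with a median of 1.02 against 0.33. Ltbr, Tnfrsf18 and Tnfrsf13c, the named ones, had 1, 1 and 2 UMIs in Sham.

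Osm (ENSMUSG00000058755, chr11:4236420-4241026, plus strand) gave a pattern unlike that of Tnf. In neutrophils it stood at 1079 CPM in AAA_14 (4212 UMIs), 239 CPM in AAA_7 (342 UMIs) and 1047 CPM in Sham (396 UMIs). AAA_14 and Sham overlapped and AAA_7 lay below both. The log2 ratio was 0.04 (−0.11 to 0.20) for AAA_14 over Sham, −2.13 (−2.35 to −1.92) for AAA_7 over Sham and 2.18 (2.02 to 2.34) for AAA_14 over AAA_7. At equal depth 50.2% of AAA_14, 17.3% of AAA_7 and 55.4% of Sham neutrophils held an Osm UMI.

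The clusters carried the same difference. In the Acod1 cluster Osm was 975 CPM in AAA_14 and 250.3 CPM in AAA_7, a log2 ratio of 1.96 (1.78 to 2.15), the opposite direction to Tnf in the same cells. The Csf3r cluster had the highest Osm level of any cluster with at least 30 cells, at 1557 CPM in AAA_14 and 1816 CPM in Sham. In the Retnlg cluster Osm was 871 CPM in AAA_14 and 832 CPM in Sham, a log2 ratio of 0.06 (−0.13 to 0.27). The Camp and Ngp cluster held Osm at 91.9 CPM in AAA_14 and 177 CPM in Sham, the Sham value from 21 UMIs.

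In phagocytes the order of the libraries turned round. Osm was 120.4 CPM in AAA_14 and 239 CPM in AAA_7, a log2 ratio of −0.99 (−1.10 to −0.87), and in dendritic cells 25.5 and 119.9 CPM, a log2 ratio of −2.23 (−2.55 to −1.92) that was −0.57 with classes assigned cell by cell. Among phagocytes the Thbs1 cluster was highest, with 429 CPM in AAA_14 and 445 CPM in AAA_7 (log2 ratio −0.05, −0.26 to 0.15). As this cluster held 62 AAA_14 and 483 AAA_7 cells, the class mean weights it differently in each library. Ccl8 macrophages had 123 CPM in AAA_14 and 74.4 CPM in AAA_7 (0.72, 0.45 to 1.00), and Slamf9 macrophages 54.3 and 138 CPM (−1.35, −1.71 to −0.97). In T cells Osm rested on 102 UMIs in AAA_14, 24 UMIs in AAA_7 and 8 UMIs in Sham. The T cell log2 ratios over Sham were 2.08 (1.12 to 3.41) for AAA_14 and 1.86 (0.71 to 3.28) for AAA_7. After thinning they were −0.02, from 9 and 4 UMIs, and 0.75, so no direction is read from them.

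**Figure D5:**
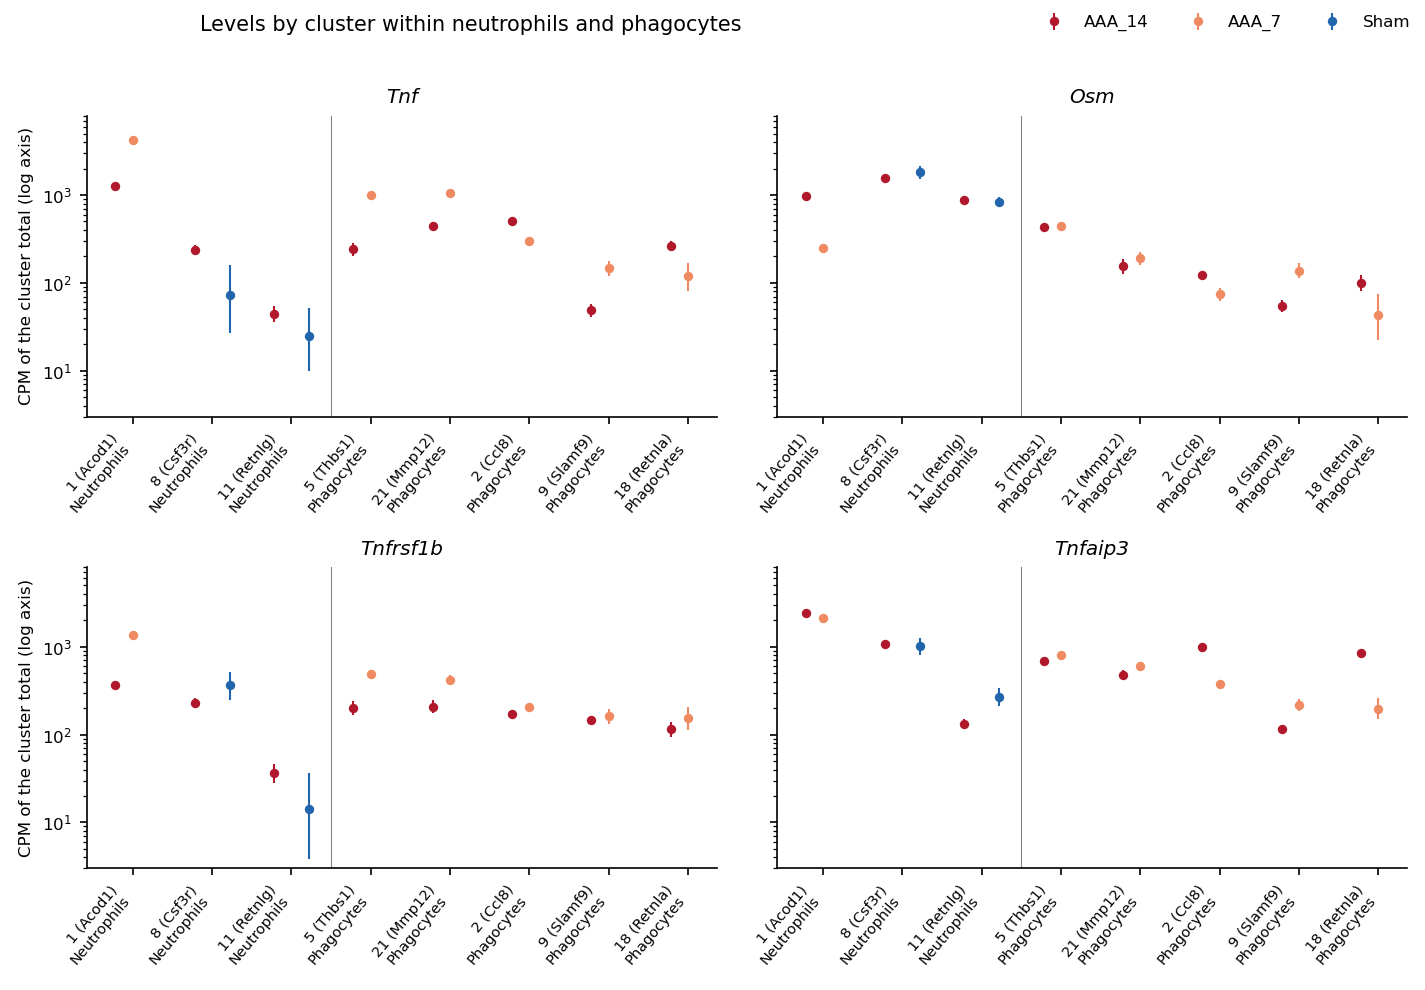
Level of Tnf, Osm, Tnfrsf1b and Tnfaip3 (CPM of the cluster total, log axis) in single neutrophil and phagocyte clusters with at least 30 cells in the library, for AAA_14, AAA_7 and Sham, with 95% Poisson counting intervals. In the Acod1 neutrophil cluster Tnf is lower in AAA_14 (1263 CPM) than in AAA_7 (4268 CPM) and Osm is higher (975 and 250.3 CPM).

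Tnf and Osm were also counted in the same neutrophils after thinning. In AAA_14, 64 of 753 neutrophils held both, 80 held Tnf alone, 314 Osm alone and 295 neither. In AAA_7, 73 of 640 held both, 362 Tnf alone, 38 Osm alone and 167 neither, and in Sham 1 of 92 held both, 2 Tnf alone, 50 Osm alone and 39 neither. Osm alone was thus the largest group in AAA_14 and Sham, and Tnf alone in AAA_7. Thinning discards UMIs, which lowers the counts of cells with both. Unthinned, at unequal depth, 197 of 760 AAA_14 neutrophils held both, 72 Tnf alone and 378 Osm alone. These counts were 150, 391 and 44 of 710 in AAA_7, and 10, 0 and 66 of 93 in Sham. The largest groups stayed the same. After thinning, Tnf and Tnfrsf1b were found together in 42 of 753 AAA_14, 300 of 640 AAA_7 and 0 of 92 Sham neutrophils. Unthinned, the 2 genes were together in 159 of 760, 447 of 710 and 4 of 93.

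Il6 (ENSMUSG00000025746, chr5:30013114-30019981, plus strand) was a gene of few cells. Neutrophils held 6 UMIs in AAA_14, 1 UMI in AAA_7 and 0 UMIs in Sham, and T cells 12, 1 and 1. Phagocytes had 75.2 CPM in AAA_14 (781 UMIs) and 37.6 CPM in AAA_7 (214 UMIs), a log2 ratio of 1.00 (0.78 to 1.23). At equal depth 3.96% of AAA_14 and 0.999% of AAA_7 phagocytes held an Il6 UMI. A single phagocyte carried 54.2% of the UMIs of AAA_7 and 11.4% of those of AAA_14, and without the top cell of each the log2 ratio was 1.95.

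The phagocyte Il6 was uneven between clusters. The Mmp12, Gpnmb and Arg1 cluster was highest, with 411 CPM in the 31 cells of AAA_14 and 194 CPM in the 79 cells of AAA_7, where 92.1% came from 1 cell. In Ccl8 macrophages Il6 was 55.4 CPM in AAA_14 and 3.31 CPM in AAA_7 (290 and 6 UMIs), and in the Retnla and Lyve1 macrophages 149 CPM in AAA_14 and 0 UMIs in the 36 cells of AAA_7. In the Thbs1 cluster it was 101 CPM in AAA_14 and 36.1 CPM in AAA_7. AAA_14 was thus the higher library in these 4 clusters. Tnf and Il6 were found in the same phagocyte in 14 of 909 AAA_14 and 6 of 901 AAA_7 cells after thinning. Unthinned, 89 of 918 AAA_14 phagocytes held both and 21 held Il6 alone. In AAA_7, 32 of 1009 held both and 5 held Il6 alone, so most phagocytes with Il6 also held Tnf.

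Among whole cell classes of AAA_14, non-immune cells that passed the CD45 sort held Il6 at the highest levels. It stood there at 1196 CPM in 27 smooth muscle cells (339 UMIs, 48.7% in 1 cell), 385 CPM in 27 endothelial cells (117 UMIs, 53.8% in 1 cell) and 171 CPM in 58 fibroblasts (183 UMIs, 56.8% in 1 cell). Of the 1528 Il6 UMIs of AAA_14, smooth muscle cells held 22.2%, fibroblasts 11.98% and endothelial cells 7.66%, and phagocytes held 51.1%. Of the 69 Il6 UMIs of Sham, 33 came from 3 fibroblasts (81.8% in 1 cell). Another 33 came from an unnamed cluster led by Mptx1, Spink4 and Cma1, where 4 of 28 cells held Il6 (45.5% in 1 cell). CD45 selection is meant to exclude non-immune cells, so their number here does not measure their number in the aorta.

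Il6ra (ENSMUSG00000027947, chr3:89864059-89913196, minus strand) was spread over phagocytes, T cells, dendritic cells, neutrophils and unnamed clusters. Of its 4051 UMIs in AAA_14, the unnamed Prtn3 cluster held 518, at 176 CPM in 265 cells. In neutrophils Il6ra stood at 87.1 CPM in AAA_14, 180.0 CPM in AAA_7 and 52.9 CPM in Sham (20 UMIs). The log2 ratios were 0.69 (0.07 to 1.45) for AAA_14 over Sham and 1.73 (1.11 to 2.503) for AAA_7 over Sham. AAA_7 was the highest library, and the level intervals of AAA_14 (78.1 to 96.9 CPM) and Sham (32.3 to 81.6 CPM) overlapped. After thinning both ratios were larger, at 1.47 and 2.44. They rest on few counts, as only 3 Sham neutrophils, all of the Csf3r cluster, then held an Il6ra UMI. Phagocytes had 157 CPM in AAA_14 and 143 CPM in AAA_7 (log2 ratio 0.13, 0.01 to 0.26), and dendritic cells 83.1 and 95.7 CPM. T cells had 89.0 CPM in AAA_14, 70.8 CPM in AAA_7 and 68.3 CPM in Sham, all within 2-fold. The T cell cluster led by Lef1, Dusp10 and Tcf7 had 159 CPM in AAA_14, 136 CPM in AAA_7 and 96.2 CPM in Sham, while gamma-delta T cells held 6 UMIs in AAA_14 and 0 in AAA_7. NK cells held 10, 2 and 4 UMIs in AAA_14, AAA_7 and Sham.

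Il6st (ENSMUSG00000021756, chr13:112464070-112510086, plus strand) was highest outside the leukocytes. In AAA_14 it stood at 559.5 CPM in endothelial cells, 234 CPM in fibroblasts and 187 CPM in smooth muscle cells. Of the 6 compared classes T cells had the most, at 57.7 CPM in AAA_14, 68.8 CPM in AAA_7 and 56.0 CPM in Sham, with log2 ratios of 0.04 (−0.24 to 0.33) for AAA_14 over Sham and 0.30 (−0.06 to 0.65) for AAA_7 over Sham. The dendritic cell intervals overlapped those of T cells in AAA_14 and Sham. Neutrophils held 12 UMIs in AAA_14, 15 UMIs in AAA_7 and 2 UMIs in Sham, so that the cells with the highest Osm level had few transcripts of this receptor chain. Phagocytes had 32.6 CPM in AAA_14 and 24.2 CPM in AAA_7 (log2 ratio 0.42, 0.14 to 0.72). In B cells Il6st was 11.01 CPM in AAA_14, 21.6 CPM in AAA_7 and 22.2 CPM in Sham, and the log2 ratio of AAA_14 over Sham was −1.03 (−1.62 to −0.37), or −0.46 with no mitochondrial limit. The AAA_14 B cells included 214 cells of a cluster led by Mef2b, Rgs13 and Pclaf, with Il6st at 3.97 CPM, of which Sham had 8 cells. In the main B cell cluster Il6st was 16.9 CPM in AAA_14 and 22.3 CPM in Sham, with overlapping intervals. After thinning, Il6ra and Il6st were found together in 8 of 920 T cells of AAA_14, 2 of 537 of AAA_7 and 3 of 429 of Sham. Unthinned, the counts were 143 of 925, 27 of 562 and 36 of 430.

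Downstream genes of the gp130 receptors were described in neutrophils. Of the 16 JAK and STAT genes 4 were higher and 0 lower in AAA_14 than in Sham (median 0.63 against 0.24), a share near the 24.2% of all genes. In AAA_7, 10 of 15 were higher and 0 lower than in Sham, against 28.4% of all genes (median 1.17 against 0.33). Socs3, the STAT3-induced inhibitor that binds gp130, stood at 247 CPM in AAA_14, 400.4 CPM in AAA_7 and 52.9 CPM in Sham, with log2 ratios of 2.19 (1.59 to 2.94) and 2.89 (2.28 to 3.64) over Sham. Of the other gp130 ligands 2 of 4 were higher in AAA_14 than in Sham (median 0.72 against 0.24), among them Il27 with 41 UMIs in AAA_14, 12 UMIs in AAA_7 and 1 UMI in Sham.

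In phagocytes, 1 of the 8 genes, Tnfrsf1b, was lower in AAA_14 than in AAA_7, as were 3.93% of all genes tested, and 0 were higher, against 7.64%. These counts rest on ratios near 2-fold. The Tnfrsf1b call, −1.03, was lost under 6 alternatives (−0.93 to −0.97), whereas Osm, at −0.99, reached 2-fold under 7 (up to −1.10) and Tnf, at −0.92, under 7 (up to −1.50). Il6, just under 2-fold, passed it after thinning (1.47) and without the top cell (1.95). Of the NF-kappaB list 3 of 16 were lower and 0 higher (median −0.11 against 0.09 for all genes). Nfkbia, the inhibitor that holds NF-kappaB in the cytoplasm, stood at 1241 CPM in AAA_14 and 2842 CPM in AAA_7, Tnfaip2 at 84.4 and 307 CPM and Traf1 at 79.4 and 167 CPM. Cd40, a costimulatory receptor of the superfamily, was higher in AAA_14, at 96.2 CPM against 47.0 CPM in AAA_7, and Tnfsf13b, the B cell survival factor, at 13.7 against 5.27 CPM. Of the gp130 family, Lif stood at 11.4 CPM in AAA_14 and 26.9 CPM in AAA_7 and Clcf1 at 4.34 and 15.8 CPM, and the STAT-induced inhibitor Cish at 6.84 and 27.6 CPM.

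The median gene of T cells stood above Sham, at 0.50 in AAA_14 and 0.49 in AAA_7, and 26.5% and 26.8% of all genes were called higher there, with 3.07% and 3.67% called lower. Against that background, 4 of 8 genes were higher in AAA_14 (Tnf, Tnfrsf1a, Osm and, from 13 UMIs, Il6) and 4 of 7 in AAA_7 (Tnf, Tnfrsf1a, Tnfrsf1b and Osm), and 0 were lower in either. After thinning, Tnf (0.69) and Osm (−0.02) no longer passed 2-fold in AAA_14 and Osm (0.75) no longer in AAA_7, while Tnfrsf1b (1.43) did in AAA_14. Of the NF-kappaB list 8 of 16 were higher in AAA_14 and 13 of 16 in AAA_7, with medians of 1.05 and 1.69. The list of immediate early and heat shock genes had 2 of 14 higher in AAA_14 (median 0.28) and 6 of 14 in AAA_7 (median 0.90), and its part in the T cell differences was not tested.

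In NK cells, AAA_14 had 3 of 7 measured genes higher than Sham (Tnfrsf1a, Osm and Il6st, each from fewer than 50 UMIs) beside 20.5% of all genes, and 0 lower beside 3.51%. The calls of Tnfrsf1a (1.02) and Osm (1.10) were each lost under 6 alternatives, at 0.47 to 0.99 and 0.21 to 0.90. AAA_7 had Tnf and Tnfrsf1b higher of 5 measured, beside 20.4% of all genes, and 0 lower beside 5.85%. The Tnfrsf1b ratio, 1.11, was 0.68 after thinning and under 2-fold in 3 other alternatives. In B cells, AAA_14 had Tnf and, from 11 UMIs, Il6 higher of 8, beside 21.3% of all genes, and Il6st lower, beside 6.77%. AAA_7 had Tnf, Tnfrsf1b and Il6ra higher of 6, beside 15.8%, and 0 lower, beside 6.06%; the Il6ra ratio of 1.23 was 0.78 after thinning. Dendritic cells had 3 of 8 lower in AAA_14 than in AAA_7 (Tnf, Tnfrsf1b and Osm), beside 4.89% of all genes, and 0 higher, beside 9.51%.

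Across the 18 profiles of a class in a library with at least 50 cells, the genes whose log2(CPM + 1) followed each member most closely were ranked by Pearson correlation, given as a description since profiles of 1 library share its depth and free RNA. For Tnf these were F10 (0.94), Slfn2 (0.93), Tmem189 (0.91), Il1a (0.91) and N4bp1 (0.90). For Tnfrsf1b they were Rab8b (0.96), Txnrd1 (0.95), Smox (0.93), Ist1 (0.92) and Nab1 (0.91), and for Tnfaip3 Tnfsf14 (0.92), Rab8b (0.91), Lcp2 (0.91), Tnfrsf1b (0.90) and Mpp7 (0.89). For Tnfrsf1a the nearest were Itpripl2 (0.95), Fam129a (0.93), Arrdc4 (0.92), Jdp2 (0.90) and Cpne2 (0.90). For Osm 5 genes lay at 0.93, namely Degs1, Hk3, Clec5a, Cd300lf and Lilrb4a, and for Il6 C6 (0.95), Cxcl13 (0.94), Pmp22 (0.94), Itga9 (0.93) and Slco2b1 (0.93). Of the 1229 Il6 UMIs of these profiles, AAA_14 phagocytes held 781, AAA_7 phagocytes 214 and AAA_14 fibroblasts 183. The Il6 correlations thus rest on few profiles above the floor. The nearest were weaker for Il6ra, led by Fabp5 (0.83), Ubtd1 (0.81) and Cnih4 (0.79), and for Il6st, led by Ext1 (0.86), Hs2st1 (0.82) and Ercc5 (0.82). Among the 8 themselves, Tnf lay nearest to Tnfrsf1b (0.859) and Tnfaip3 (0.793), and Il6st and Osm ran opposite (−0.526).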

How the data were processed

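Per the labels' protocols, cells from digested aortas (collagenase, hyaluronidase and DNase at 37 °C for 1 hour) were captured with a 10x 3′ kit. The deposited matrices hold UMI counts per gene and barcode; per the file headers they were made with Cell Ranger 6.1.2, and the submitters' processing notes also name Seurat and the mm10 genome. How the authors filtered barcodes is not given in the sources used here; the lowest barcode total was at least 500 UMIs.

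From the counts, barcodes with at least 200 genes and at most 10% mitochondrial UMIs were kept with doublets, and clustered with scanpy 1.11.5 (2000 variable genes without the 8 genes and the pathway genes, 30 principal components, 15 neighbours, Leiden resolution 1); clusters were named from marker genes. UMIs were summed per class and library. Log2 ratios add 0.5 counts to each sum and carry exact conditional binomial 95% intervals; shares carry Clopper-Pearson and levels Poisson intervals. All intervals cover counting error only, and a count of 0 allows 0.0568% of AAA_14, 0.0929% of AAA_7 and 0.243% of Sham cells. edgeR 4.0.16 supplied the TMM factors of one alternative and no test. The ratio code was tested on simulated data.

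The 8 genes, the lists and the alternatives were chosen with earlier results of these data known; the list of immediate early and heat shock genes was added after the values were seen. Pathway genes were named where 2-fold or more with at least 30 UMIs, at most 3 per list and direction, from neutrophils (AAA_14 over Sham) and phagocytes (AAA_14 over AAA_7). Gene positions are from GENCODE vM21 on GRCm38, whose identifiers matched 99.6% of those in the files.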

Additional observations from a re-analysis of the deposited data

Results flagged for a closer look

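The Osm ratios had opposite signs in different cell classes under the same comparison, and the difference between classes was not tested. For AAA_7 over Sham its log2 ratio was 1.86 in T cells, from 24 and 8 UMIs, and −2.13 in neutrophils; the T cell ratio was 0.75 after thinning, and no direction is read from it. For AAA_14 over AAA_7 it was 2.18 in neutrophils and −2.23 in dendritic cells, or −0.57 there with classes assigned cell by cell.

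The barcodes removed by the filter entered the comparisons only under the alternatives with a mitochondrial limit of 20% or none, and several of the genes stood above Sham in them. In the removed barcodes of AAA_14, Tnf stood at 74.0 CPM against 10.0 CPM in those of Sham, Tnfrsf1a at 30.5 against 4.81 CPM and Tnfrsf1b at 59.5 against 23.3 CPM. Osm stood there at 80.8 against 6.63 CPM and Il6 at 8.56 against 0.520 CPM, the Sham value of Il6 from 4 UMIs. In the removed barcodes of AAA_7, Tnf stood at 389 CPM, Tnfrsf1a at 42.5 CPM and Tnfrsf1b at 173 CPM, Osm at 98.0 CPM, and Il6ra at 108 CPM against 38.5 CPM in Sham. These levels are over all removed barcodes, whose cell mix differed. With no mitochondrial limit AAA_14 had 1203 neutrophils, 2005 phagocytes, 1623 T cells and 3572 B cells, and Sham had 128 neutrophils, 22 phagocytes, 1433 T cells and 1902 B cells, so the barcodes put back in Sham were mostly T and B cells.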

How the results depend on the processing

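Of the 37 class ratios at 2-fold or more with at least 30 UMIs, recomputed 401 times under the alternatives, 400 kept their direction and 352 kept the 2-fold size. The one that turned was Osm in T cells, AAA_14 over Sham, at −0.0227 after thinning to 1000 UMIs, from 9 and 4 UMIs. For Tnf in neutrophils, AAA_14 over Sham was 1.60 without the Acod1 cluster, an alternative chosen after seeing the data, as were those within clusters and the clustering without AAA_7. AAA_14 over AAA_7 was −4.09, −3.54 and −3.53 with mitochondrial limits of 5%, 20% and none, −3.51 with at least 500 genes, −3.09 after thinning and −3.70 with classes assigned cell by cell. For Osm in neutrophils, AAA_14 over Sham was −0.20 with TMM factors and −0.18 after thinning. AAA_7 over Sham was −1.83 with a limit of 20% and with none, −2.46 with TMM factors and −2.41 after thinning. AAA_14 over AAA_7 was 1.96, 1.94 and 1.95 with limits of 5%, 20% and none. For Tnf in phagocytes, AAA_14 over AAA_7 was −1.50, −1.20 and −1.20 under those limits, −1.19 with at least 500 genes, −0.81 without the highest Scrublet doublet scores, −1.0 with TMM factors, −1.22 at clustering resolution 2 and −1.15 cell by cell. For Il6 in phagocytes it was 0.75, 0.69 and 0.65 under the limits, 0.76 with at least 500 genes, 1.47 after thinning, 0.72 at resolution 2, 0.73 cell by cell and 1.95 without the top cell. The number of NF-kappaB genes higher in AAA_14 than in Sham neutrophils was 5 without the Acod1 cluster. The cause of these changes was not tested. TMM factors lowered the ratios over Sham by 0.24 and 0.33 in neutrophils and by 0.47 and 0.48 in T cells (AAA_14 and AAA_7). With a limit of 5%, 1 Sham T cell, 16 Sham NK cells and 3 Sham B cells were left, so comparisons of those classes with Sham were not run. No paired analysis was possible because each group is 1 library. Few cells limited the Sham values, as its 93 neutrophils held 13 Tnf UMIs.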
